A study of Drosophila melanogaster with 2 samples.

Results

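The genes described are 10 Drosophila genes of DNA replication, listed together as licensing genes. Orc1, Orc2 and Orc5 belong to the origin recognition complex, which marks out replication origins. Mcm2, Mcm3, dpa, Mcm5, Mcm6 and Mcm7 are the 6 genes of the MCM helicase that is loaded there. PCNA is the gene of the sliding clamp, which acts after licensing. All 10 genes were taken by symbol from the dm6 annotation as classical targets of DREF, the factor that binds the DNA replication-related element (DRE). They are 10 of 13968 annotated protein-coding genes. A call belonged to a gene when its summit lay in the gene or within 1 kb of it. The rule uses no binding value, but the list was chosen with earlier results of these data known. Binding was measured by ChIP-seq against GFP in whole embryos of mixed sex, 0 to 16 h old, of a line in which ADD1 carries an eGFP exon in an intron, so that an ADD1-GFP fusion is made from its own locus. ADD1 is a protein associated with heterochromatin, and its gene, CG8290, is the one the labels give in the antibody field. Chromatin was sonicated to 200 to 800 bp. The 2 libraries are biological replicates 1 and 3 of this single genotype, without treatment, and no second condition or untagged line was analysed here. Strong binding in a few cells and weak binding in many cannot be told apart in whole embryos. A further 46 genes of DNA replication served for comparison.

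In the cycle of a eukaryotic cell, the origin recognition complex (ORC) sits at origins and, with Cdc6 and Cdt1, loads the ring-shaped MCM helicase before S phase, a step called licensing. PCNA then encircles DNA behind the helicase and holds the polymerases. In flies the genes of this machinery are switched on together in dividing cells, and DREF at the DRE and E2F at its own sites are the best known activators of their promoters.

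The start regions show which of these letters the genes carry. They are given for the 7 genes whose sequence can be shown, because promoters with and without an ADD1-GFP call can be compared letter by letter. Each stretch is on the plus strand of dm6, read from RefSeq's Release 6 assembly in the direction of the gene, and begins 210 bp before the start, except that of Orc5. The stretches of Mcm2 and Mcm5 end at the base before the start, that of Mcm3 ends 4 bp after it and the others 24 bp after it. That of Orc5 begins 95 bp before the start, where the leader of the divergent gene Arpc1 ends. Capitals mark the DRE octamer TATCGATA or its core TCGATA, the E2F octamers TTTCCCGC, TTTCGCGC, TTTGCCGC and TTTGGCGC, and the M1BP element GGTCACAC, on either strand. Mcm2, Mcm5 and Orc2 had a kept call at the start, Mcm6 a weaker one, and Mcm3, Mcm7 and Orc5 none.
Mcm2 (chr3R:8264760-8264969): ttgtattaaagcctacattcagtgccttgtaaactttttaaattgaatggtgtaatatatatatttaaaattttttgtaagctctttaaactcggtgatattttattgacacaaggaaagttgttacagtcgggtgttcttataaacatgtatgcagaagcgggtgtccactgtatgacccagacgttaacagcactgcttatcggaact
Mcm5 (chr3R:10788314-10788523): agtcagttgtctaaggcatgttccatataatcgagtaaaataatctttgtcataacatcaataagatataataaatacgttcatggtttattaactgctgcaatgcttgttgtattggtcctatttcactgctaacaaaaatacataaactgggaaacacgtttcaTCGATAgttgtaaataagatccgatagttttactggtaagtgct
Orc2 (chr3R:13964675-13964909): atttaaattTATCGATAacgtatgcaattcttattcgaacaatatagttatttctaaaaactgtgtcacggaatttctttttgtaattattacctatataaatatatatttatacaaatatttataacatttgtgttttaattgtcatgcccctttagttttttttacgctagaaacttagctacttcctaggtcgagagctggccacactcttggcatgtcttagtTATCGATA
Mcm6 (chrX:6674177-6674411): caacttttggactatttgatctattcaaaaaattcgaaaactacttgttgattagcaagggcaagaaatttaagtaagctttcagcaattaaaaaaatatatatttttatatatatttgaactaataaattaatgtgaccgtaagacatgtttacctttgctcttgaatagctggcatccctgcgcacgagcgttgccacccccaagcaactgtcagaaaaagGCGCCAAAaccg
Mcm3 (chrX:5323645-5323859): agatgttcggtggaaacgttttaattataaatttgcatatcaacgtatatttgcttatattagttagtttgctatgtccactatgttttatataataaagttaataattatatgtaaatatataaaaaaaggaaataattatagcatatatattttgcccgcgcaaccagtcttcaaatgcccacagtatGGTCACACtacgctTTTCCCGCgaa
Mcm7 (chr3L:8891386-8891620): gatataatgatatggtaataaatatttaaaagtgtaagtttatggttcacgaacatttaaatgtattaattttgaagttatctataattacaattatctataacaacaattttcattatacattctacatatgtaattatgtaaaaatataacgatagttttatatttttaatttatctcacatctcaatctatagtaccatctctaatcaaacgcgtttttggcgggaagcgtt
Orc5 (chr2L:13829742-13829861): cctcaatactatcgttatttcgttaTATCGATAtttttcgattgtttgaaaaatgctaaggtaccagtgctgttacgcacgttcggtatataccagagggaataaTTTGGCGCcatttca
The E2F octamers of Mcm2 and Mcm5 lie further into the leader and are shown with the bases around them.
Mcm2 leader (chr3R:8264994-8265021): attagcaaacatTTTCCCGCgcattttc
Mcm5 leader (chr3R:10788548-10788575): taattttgGCGGCAAAatattcgcacat
Orc2 has a DRE octamer at either end of its stretch, whereas the stretch of Mcm7 holds none of the marked letters.

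ADD1-GFP calls were present at most of these genes and were of middling strength. Calls were present at 7 of the 10 genes (70%), against 61.3% of all protein-coding genes by the same rule. A call that passed the authors' irreproducible discovery rate threshold, named a kept call here, was present at 5 of 10 (50%), namely Mcm2, dpa, Mcm5, Orc1 and Orc2, against a background of 31.4%. Among the 5934 protein-coding genes within the members' length range of 1130 to 3444 bp, 59.9% had a call and 28.7% a kept call. No test of the list was made. The 12 calls of the members included 6 kept ones. Signal ranks run from 1 for the strongest of the 30000 pooled calls, and the kept list ends at rank 4402. The strongest call of each bound member had a median rank of 3327 over the 7 genes, against 4217 over the 8566 protein-coding genes with a call. The 5 kept members stood at ranks 1070 to 3619, while the median was 1755 over the 4388 genes with a kept call, so 4 of the 5 ranked below that median. The weakest kept member calls were those at Orc2 (rank 3619) and the second call of dpa (3799), and the strongest that were not kept were those of Mcm6 (7502) and PCNA (7532).

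**Figure D1:**
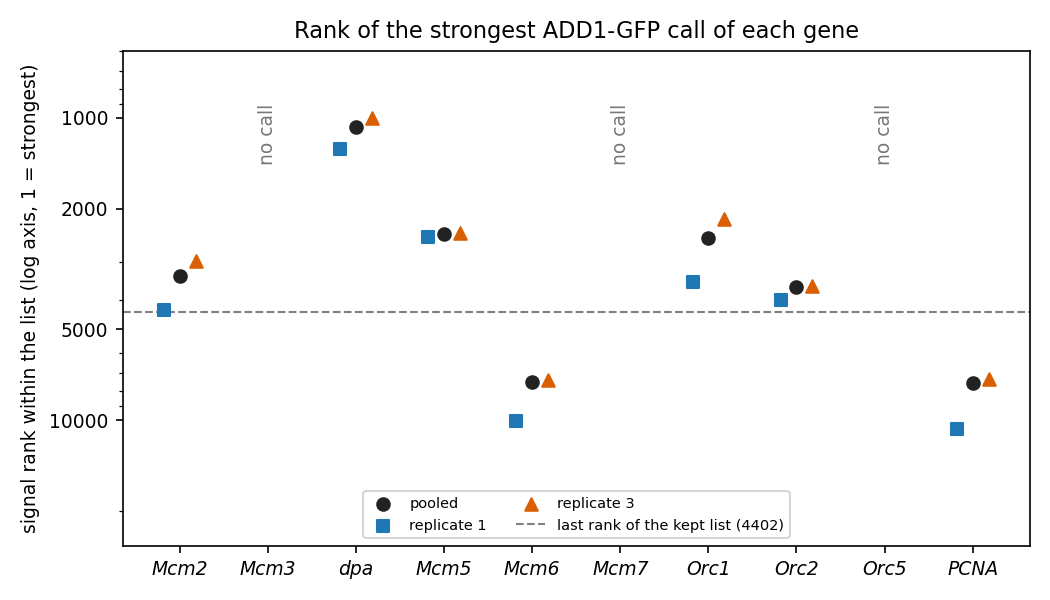
Signal rank of the strongest call of each gene (log axis, 1 at the top) in the pooled list and in each replicate list, with the last kept rank of 4402 dashed. The points of 5 genes lie above the line in all 3 lists, those of Mcm6 and PCNA below it, and Mcm3, Mcm7 and Orc5 had no call in any of them.

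Among the helicase subunits, dpa had the strongest call of all 10 genes. The gene, which codes for the Mcm4 subunit, lies on 2R from 7496702 to 7500145 on the minus strand. Its call (7499769 to 7500192) had a signal of 204 and rank 1070 in the pool, with a signal of 88.3 and rank 1268 in replicate 1 and a signal of 116 and rank 1002 in replicate 3. The summit lay in the 5′ untranslated region of dpa, 104 bp upstream of the nearer of its annotated starts and 164 bp downstream of the other. The divergent gene didum, which codes for a myosin, has a start within 500 bp of it, so the call cannot be given to one of the pair. A second kept call at the other end of dpa (7496177 to 7496600, signal 107, rank 3799) had its summit 313 bp past the gene, in the 5′ untranslated region of CG1620. It ranked 5046 in replicate 1 and 3531 in replicate 3. Another call overlapped that one, with a signal of 32.2 at rank 22202, and matched the same call of replicate 1.

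Mcm5 and Mcm2 also had kept calls at their starts. The Mcm5 call (3R, 10788148 to 10788571) had a signal of 138 and rank 2416, with a signal of 65.2 and rank 2482 in replicate 1 and a signal of 75.8 and rank 2398 in replicate 3. Its summit was 164 bp upstream of the Mcm5 start, between Mcm5 and the divergent gene Art1, which codes for an arginine methyltransferase. A weak second call 549 bp past the end of Mcm5 (signal 27.8, rank 27205) matched no call of either replicate. The Mcm2 call (3R, 8264755 to 8265178) had a signal of 115 and rank 3327, with a signal of 48.1 and rank 4337 in replicate 1 and a signal of 67.7 and rank 2970 in replicate 3. Its summit was 3 bp upstream of the Mcm2 start. RPA1, the gene of the large subunit of the single-strand binding protein, starts 519 bp away in the opposite direction, and the same call lay 516 bp from the RPA1 start. Both genes therefore count this single call.

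The other helicase subunits had weak calls or none. Mcm6 (X, 6674387 to 6677176, plus strand) had a call at 6674112 to 6674535, with a signal of 66.6 and rank 7502. It had a signal of 29.1 and rank 10067 in replicate 1 and a signal of 37.2 and rank 7337 in replicate 3. The call was not kept in the pool, and it lay below the last kept rank in both replicates. Its summit was 63 bp upstream of the Mcm6 start, with the start of the divergent CG3198 also within 500 bp. Mcm3 (X, 5323855 to 5326738) and Mcm7 (3L, 8891596 to 8894310) had no call in the pool or in either replicate. A kept call (rank 2725, signal 130) lay 1147 bp from Mcm3, at the start of Rnp4F, and a weak one (rank 24737) 1150 bp from Mcm7, in the 3′ untranslated region of dally. Of the 6 helicase genes, 3 thus had a kept call, against 31.4% of all protein-coding genes by the same rule.

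Of the ORC genes, Orc1 and Orc2 had kept calls and Orc5 did not. Orc1, the subunit with the ATPase that governs ORC binding to DNA, lies on 2R from 7522437 to 7525716, 22292 bp from dpa. Its call (7525570 to 7525993) had a signal of 136 and rank 2495, with a signal of 54.3 and rank 3489 in replicate 1 and a signal of 80.0 and rank 2161 in replicate 3. Its summit was 66 bp upstream of the start. No other gene starts within 500 bp. Orc2 (3R, 13964885 to 13967075, plus strand) had a call at 13964595 to 13965018, with a signal of 110 and rank 3619. It had a signal of 50.5 and rank 4002 in replicate 1 and a signal of 60.7 and rank 3593 in replicate 3. The summit lay 78 bp upstream of the start, between the DRE octamers shown above. Another pair of weak calls lay past the 3′ end of Orc2, in the 3′ untranslated region of rdx (ranks 13459 and 29312). The stronger of them ranked 11278 in replicate 1 and 22713 in replicate 3.

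Orc5 (2L, 13829837 to 13831576) had no call by the rule in any list, and the nearest pooled summit was 3886 bp away. That summit belonged to the call ranked 25 in the pool, near the starts of CenG1A and mRpS23. Both replicates had a nearer call, 1556 bp from Orc5 in replicate 1 (rank 5534) and 1619 bp in replicate 3 (rank 3609), at the starts of GatC, PolG2 and Polr2C. The pooled list has no call there. Among the 4402 strongest calls of each replicate, 3461 of replicate 1 overlapped one of replicate 3, and 27 of these had no overlapping pooled call. The replicate 1 call near Orc5 (rank 5534) is outside that class, and gaps among weaker calls were not counted.

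PCNA, the gene in which the DRE is best known, had a call that was not kept. The gene lies on 2R from 20261754 to 20262883 on the minus strand, and the call (20262642 to 20263065) had a signal of 66.3 and rank 7532. It ranked 10708 in replicate 1, with a signal of 28.0, and 7322 in replicate 3, with a signal of 37.2. The summit was in the 5′ untranslated region, 29 bp downstream of the outer start. The deposited −log10 q-value was 1.52 for PCNA and 1.53 for Mcm6, against 3.92, the highest value of the list, for the 6 kept member calls. A kept call of rank 1459 lay 1099 bp from PCNA, in the 5′ untranslated region of the ribosomal protein gene RpS18, and one of rank 2823 lay 1148 bp from Mcm6, near the starts of ND-ASHI and Fum1. With that beside Mcm3, 3 of the 5 members without a kept call had one just outside the 1 kb limit, each within 500 bp of a start of another gene. These neighbours were named after their values were seen. Over all protein-coding genes, the share with a kept call was 31.4% with 1 kb around the gene and 36.7% with 2 kb.

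The strongest calls lay close to the starts. Over the 7 members with a call, the distance from summit to the nearest start of the gene was 3 to 164 bp, with a median of 66 bp. Of all 4402 kept calls, 59.8% had a summit within 500 bp of any annotated start, and among these the median distance was 98 bp. No call had its summit in the coding sequence or an intron of a member. The GC content of the 100 bp on either side of the 7 strongest summits was 29.9% to 47.3%, with a median of 38.3%, against 36.3% for all kept calls at starts.

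**Figure D2:**
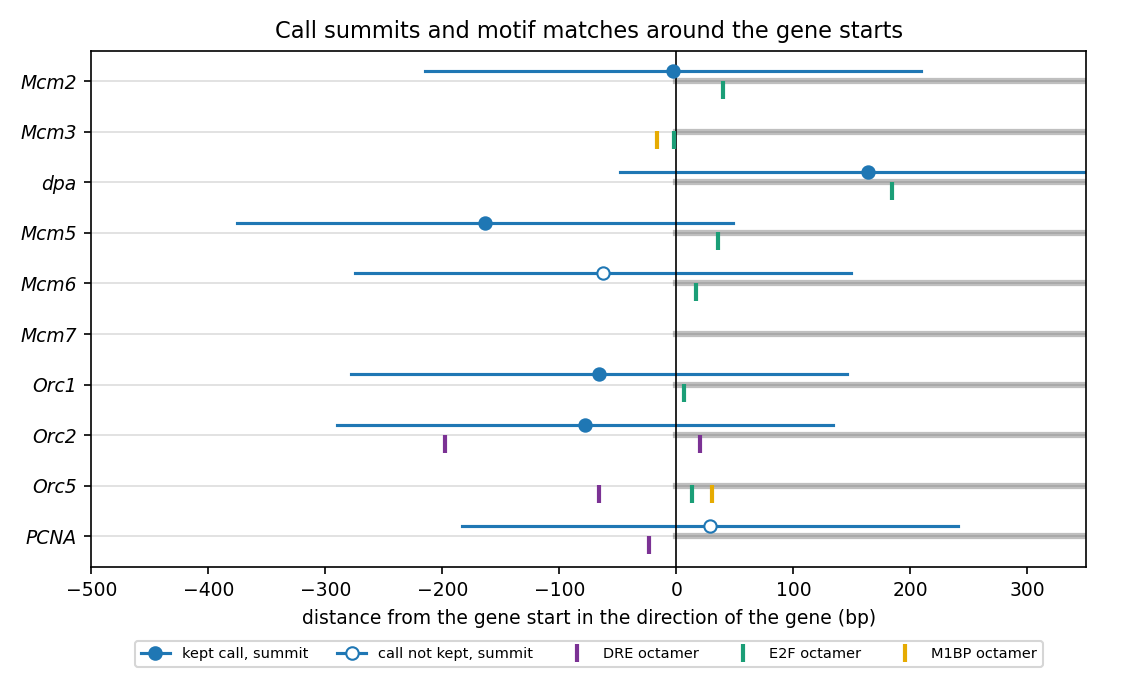
Calls (blue lines, with the summit filled where kept and open where not) and motif matches (ticks) by distance in bp from the gene start, with the gene in grey. The summit of the strongest call of each of the 7 bound genes lies between 164 bp before and 164 bp after the gene start, their 5 other calls lie outside the plotted range, and motif matches are present with and without a call.

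The DRE octamer was present at members with and without a kept call. It was in the promoter (250 bp before to 50 bp after the start) of 3 of the 10 genes, PCNA, Orc2 and Orc5. The share was 9.36% over all protein-coding genes and 32.6% over the 46 other replication genes. Of these 3, Orc2 had a kept call, PCNA a weaker one and Orc5 none. Whether these genes are DREF targets was not tested, since only exact letters in the promoter window were counted. The core of the octamer, TCGATA, was in 4 of the 10 promoters (27.7% of all genes), Mcm5 being added. Each octamer holds the core on both strands and so counts for the core too. In PCNA the octamer lies 27 to 20 bp before the start and in Orc5 70 to 63 bp before it. Genome-wide, a kept call was present at 49.5% of the 1307 genes with the octamer in the promoter and at 29.5% of the 12661 without. Within 100 bp of the summit, the octamer was found at 1 of the 7 strongest member calls (PCNA). It was at 11.0% of all kept calls at starts, at 5.4% of those not kept and at 15.4% of the strongest calls of other replication genes. It was there in none of the 6 kept member calls, and with 200 bp on either side of the summit Orc2 was added.

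An E2F octamer was in the promoters of 6 of the 10, Mcm2, Mcm3, Mcm5, Mcm6, Orc1 and Orc5. The share was 6.41% over all protein-coding genes and 32.6% over the 46 other replication genes. In dpa, which has 2 annotated starts, an octamer lies at 181 to 188 bp after the outer start, outside the window taken from that start. This octamer is less than 104 bp before the inner start, so a window taken from there would hold it. Of these 6 promoters, 3 belong to genes with a kept call, 1 to Mcm6 with a weaker call and 2 to genes with none. Across all genes the kept share was 32.8% with an E2F octamer in the promoter and 31.3% without. Around the 7 strongest member calls, 4 windows of 100 bp on either side of the summit held an E2F octamer (Mcm2, dpa, Mcm6 and Orc1). Such an octamer was at 3.99% of all kept calls at starts and at 4.7% of those not kept. Among the strongest calls of 39 other replication genes, 9 (23.1%) held one, including the call that RPA1 shares with Mcm2. The M1BP element, a core promoter element of broadly expressed genes, was in the promoters of Mcm3 and Orc5 (7.69% of all genes), and neither had a call. Genome-wide, the element lay within 100 bp of the summit at 6.91% of kept calls at starts and at 4.51% of those not kept. The arbitrary octamer ACGTTACG was in 0 of the 10 promoters and in 0.43% of all. With TTTCCCGG, TTTCGCGG, TTTGCCGG and TTTGGCGG added to the E2F set, chosen once values were known, 7 of 10 members and 10.4% of all genes held a match. Mcm7 was added, with TTTGGCGG at 9 to 16 bp after its start. These matches are letters in a window and show no binding by a factor.

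In rank, replicate 3 placed every strongest member call higher than replicate 1 did. This held for 7 of 7 strongest calls and for 6 of 6 kept calls, with median ranks of 4002 in replicate 1 and 2970 in replicate 3 over the 7. The kept calls add only the second call of dpa to those 7. The remaining member calls matched in both replicates ranked lower in replicate 3. They were the second call of Orc2 (11278 in replicate 1, 22713 in replicate 3) and the third of dpa (5046 and 8416). The replicate 1 call at rank 5046 is the one that the second call of dpa also matched. Over all 4369 kept calls with a match in both replicates, 52.2% ranked higher in replicate 3, and over the 34 other replication genes with a matched strongest call, 17 did. RPA1 is among these 17 through the call it shares with Mcm2, so the 2 sets are not fully separate. The 7 genes share both libraries, so the count is a description. The side of rank 4402 was the same in both replicates for each of the 7, although Mcm2 stood at 4337 in replicate 1.

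**Figure D3:**
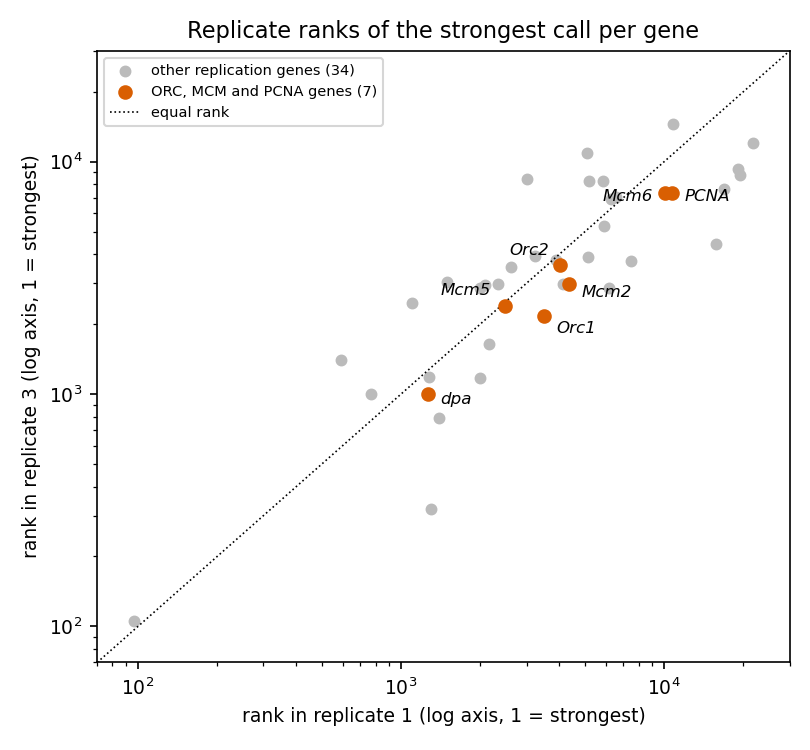
Rank of the strongest call per gene in replicate 1 and in replicate 3 (log axes, 1 is the strongest), for 7 ORC, MCM and PCNA genes (orange) and 34 other replication genes (grey). All 7 orange points lie below the line of equal rank, while 17 of the 34 grey points do. The grey point of RPA1 has the same position as the orange point of Mcm2, because the call is shared.

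Calls were also common at the other genes of DNA replication. Of 46, 39 (84.8%) had a call and 20 (43.5%) a kept call, with a median rank of 3896. Over all protein-coding genes the shares by the same rule were 61.3% and 31.4%. Some of the 46, such as E2f1, CycE and chif, are much longer than any member, and these shares were not matched for length. With summits within 500 bp of a start only, 16 of 46 and 5 of 10 had a kept call, against 22.9% of all genes. Of the remaining licensing genes, dup, which codes for Cdt1 (rank 3330), and geminin, the inhibitor of Cdt1 (rank 3109), had kept calls at their starts. Orc3 (rank 5280) and Cdc6 (rank 15407) had weaker calls, and Orc4 and Orc6 had none. Over all 6 ORC genes, kept calls were thus at Orc1 and Orc2.

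Firing factors and helicase partners had kept calls at 5 of 10 genes. For this and each class below, the share over all protein-coding genes was 31.4%. The strongest was at chif, the activating subunit of the Cdc7 kinase (2L, 16351082 to 16351368, signal 481, rank 106, ranks 97 and 106 in replicates 1 and 3), in an intron that is also one of Hyls1, 973 bp from a chif start. CycE, the S-phase cyclin, followed with an intronic call at rank 1210, and Mcm10, a helicase cofactor, with rank 1767 at a start shared with bur. Polymerase and primase genes had them at 2 of 9, Prim1 (rank 2354) and PolA1 (rank 2705). PolA1 had 2 DRE octamers within 100 bp of the summit.

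Clamp loading and strand joining genes had kept calls at 5 of 11, led by Top2, a topoisomerase (rank 831), PCNA2, the paralogue of PCNA (2L, 19583873 to 19584296, signal 212, rank 973), and Gnf1, the large clamp loader subunit, whose call (rank 3192) lay at the start of Cdep. The PCNA2 call thus ranked above that of PCNA in the pool (973 against 7532), in replicate 1 (1398 against 10708) and in replicate 3 (792 against 7322). CG10366 also has a start within 500 bp of the PCNA2 summit, so that call cannot be given to PCNA2 alone. Of the 4 nucleotide supply genes, RnrS (rank 546) and RnrL (rank 2411), both subunits of ribonucleotide reductase, had kept calls. Of the 6 transcription factors of S-phase genes, 4 had them, led by Dp, the partner of E2F (rank 834), Dref itself (rank 1462, with the summit 3 bp from its start and RpL13 starting nearby) and E2f1 (rank 1617, at the start of InR). E2f1 had 32 calls by the rule, 5 of them kept.

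**Figure D4:**
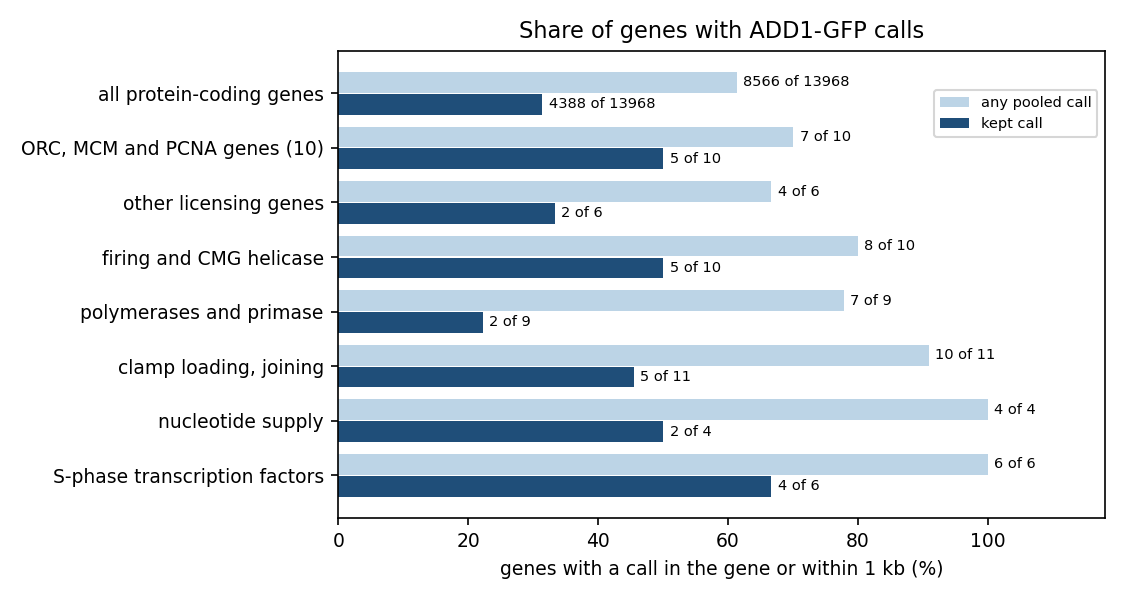
Percentage of genes with any pooled call (light bars) and with a kept call (dark bars) in the gene or within 1 kb, with the number of genes beside each bar. Kept calls were at 5 of the 10 ORC, MCM and PCNA genes, at 2 of 9 polymerase genes and at 4388 of 13968 protein-coding genes.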

How the data were processed

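The data are dm6 peak lists in narrowPeak format from 2 biological replicates of 1 group. Per the deposited file lists, calls including background were made by the authors for each replicate and for the pool of both, against a shared control, and an irreproducible discovery rate threshold left 4402 kept calls. Which aligner and caller made them is not given in the sources used here. Each call carries a signal scored by the authors on a scale that differs between lists, and only its rank within a list was used to compare calls. A deposited −log10 q-value is quoted for description. Read depth is unknown, so no interval or floor can be given.

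Summits were assigned to genes of the Ensembl release 115 annotation, and sequence came from RefSeq's Release 6 assembly, whose arms are those of dm6 (Python 3.11.15, pandas 2.3.3, numpy 2.4.6). A replicate call matched when it overlapped at least 50% of the shorter call, the strongest match being taken. Motifs were read on both strands. The assignment and the motif search were tested on simulated data. With 1 group and a chosen list, no statistical test was made. The members, lists, motifs and settings were chosen with earlier results of these data known. Genes named by rule are the 10 members, genes with a start within 500 bp of the summit of a kept member call or holding it, and the 3 genes of each other class with the strongest kept call; the rule allowed, but did not require, naming counts of 5 or fewer in full. Other neighbouring genes were named after their values were seen. The dm3 lists were not used here.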

Additional observations from a re-analysis of the deposited data

How the results depend on the processing

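Kept calls were at 5 of the 10 genes with 500 bp around the gene, with summits within 500 bp of a start, and with the 4402 strongest calls of replicate 1 or of replicate 3 alone (range 5 to 5), and they were at the same 5 genes each time. With 2 kb around the gene or any overlap of the call the number was 8, as PCNA, Mcm3 and Mcm6 were added through calls at neighbouring genes (background 36.7% and 32.5%). Among the kept calls ranked above the median of the kept list it was 1 (dpa). The number with a DRE octamer near the strongest call went from 1 to 2 with 200 bp on either side, to 2 with the core TCGATA, and to 3 in the promoter window, which counts all 10 genes. The median rank was 4002 without replicate 3 and 2970 without replicate 1. No paired analysis was possible because there is 1 group. Unknown depth limits what a missing call means at Mcm3, Mcm7 and Orc5, which had no call in either replicate.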
